A study of Rattus norvegicus with 30 samples.

Results

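Macrophages and monocytes of the lung were followed through 10 identity genes (Marco, Mrc1, Msr1, Cd68, Cd163, Pparg, Csf1r, Ccr2, Cx3cr1 and Nr4a1), each of which had a single row with that symbol among the 22914 genes with counts. The members were taken by name from known biology, with earlier results of these data in view. RNA-seq was performed on lung tissue of 30 male Sprague Dawley rats aged 8 weeks, 3 in each of 10 groups, with 1 library per rat. Tissue was collected at 6 or at 24 hours. In the Sham-6h and Sham-24h groups the pancreas was only turned slightly. In the Con-6h and Con-24h groups sterile saline was infused backwards into the biliopancreatic duct. In the SAP groups the saline was replaced by 5.0% sodium taurocholate, a bile salt toxic to pancreatic tissue, which gives severe acute pancreatitis (SAP) with acute lung injury. The DEX groups received taurocholate and intravenous dexamethasone (DEX, a synthetic glucocorticoid) at 10 mg/kg, and the Emo groups received taurocholate and emodin (an anthraquinone) into the stomach. The labels give the emodin dose both as 10 and as 40 mg/kg. Drugs or their vehicles (saline into the vein, carboxymethylcellulose into the stomach) were given at 2 and 12 hours, so that rats of the 6-hour groups had received 1 dose and those of the 24-hour groups 2. Time after the operation and the number of doses therefore cannot be told apart in a drug group.

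Alveolar macrophages sit in the air spaces, clear particles and surfactant through scavenger receptors, and depend on the nuclear receptor PPARG. Interstitial macrophages lie in the tissue, and monocytes arrive with the blood. Classical monocytes leave the bone marrow through the receptor CCR2, while patrolling monocytes carry CX3CR1, crawl along the vessel wall and need the nuclear receptor NR4A1. CX3CR1 is carried by natural killer cells and some T cells as well, and NR4A1 is an immediate early gene in many cell types, so neither is exclusive to monocytes. In whole lung tissue, fewer cells of a type and less RNA per cell cannot be told apart.

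The regions just upstream of 3 members are printed because Cx3cr1 and Ccr2 carried the differences between the drug groups and Nr4a1 varied widely between rats of a group. RefSeq promoter entries (assembly GRCr8, which is not the assembly the counts were made on) matched 9 of the 10 members, all but Msr1. The sequences below are the 250 bases before the annotated start, 5′ to 3′ on the strand of the gene: chr8:128677067-128677316 (minus strand) for Cx3cr1, chr8:132611953-132612202 (plus strand) for Ccr2 and chr7:134259888-134260137 (plus strand) for Nr4a1. Capitals mark a match to one of the searched motifs (either strand): the C/EBP motif TTGCNNAA in Ccr2 and the cyclic AMP response element variant TGCGTCA in Nr4a1.
Cx3cr1: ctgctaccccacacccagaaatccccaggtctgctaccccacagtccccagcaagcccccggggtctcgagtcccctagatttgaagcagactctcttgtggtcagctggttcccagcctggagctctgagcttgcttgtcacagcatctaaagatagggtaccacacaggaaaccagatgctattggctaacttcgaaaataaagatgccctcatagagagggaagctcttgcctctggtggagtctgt
Ccr2: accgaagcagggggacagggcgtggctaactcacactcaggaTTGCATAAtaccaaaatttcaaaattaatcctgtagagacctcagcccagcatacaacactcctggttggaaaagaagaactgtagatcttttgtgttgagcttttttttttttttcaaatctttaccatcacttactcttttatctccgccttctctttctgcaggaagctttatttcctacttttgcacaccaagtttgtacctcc
Nr4a1: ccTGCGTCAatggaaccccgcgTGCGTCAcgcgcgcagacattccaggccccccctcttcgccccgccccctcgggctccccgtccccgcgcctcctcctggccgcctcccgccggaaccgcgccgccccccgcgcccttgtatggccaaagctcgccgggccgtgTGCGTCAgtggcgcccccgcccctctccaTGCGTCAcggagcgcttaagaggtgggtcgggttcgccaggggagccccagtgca
Cx3cr1 held no match to any searched motif, which also included the AP-1 motif TGANTCA (6.34% of all promoters; found in Cd68 and Pparg) and the NR4A1 motif AAAGGTCA (1.24% of all; found in no member). The C/EBP letters were in 9.22% of the 33469 promoters of the table, and TGCGTCA was in 1.66% of them. Nr4a1 held 4 copies of TGCGTCA, which was so in 1 promoter of the table, its own. The PU.1 core GAGGAA, for a factor of the myeloid lineage, was found upstream of Marco, Mrc1, Cd68, Pparg and Csf1r and in 23.3% of all promoters. The palindromic glucocorticoid response element (AGAACA and its reverse complement, 3 bases apart) was upstream of none of the 9 members and in 0.012% of all promoters, and its single arm AGAACA was upstream of none of the 9 and in 17.5% of all. A match or its absence describes these 250 bases only.

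The 10 genes differed widely in level. Per length and depth (FPKM, fragments scaled to gene length and mapped reads, as deposited), the mean over the 30 lungs was 100.0 for Cd68, a lysosomal glycoprotein of macrophages, 43.2 for Csf1r, the receptor for macrophage colony-stimulating factor, and 36.6 for the mannose receptor Mrc1. Nr4a1 averaged 13.9 FPKM, Pparg 6.2, the haemoglobin scavenger receptor Cd163 3.95, Ccr2 3.77, the class A scavenger receptor Msr1 2.57 and Cx3cr1 2.25. Marco, a scavenger receptor of alveolar macrophages, averaged 0.0997 FPKM, reached at most 51 reads and had 0 reads in 15 libraries. This row lies on chromosome 16 in the deposited table, whereas RefSeq places Marco on chromosome 13 of GRCr8, so which transcript it counts is uncertain and its near absence does not show that the lungs held few alveolar macrophages. The list of 16 other alveolar macrophage genes, several of which other lung cells share, summed to between 784 and 1420 FPKM in every library. The gene model of Ccr2 yields few reads, 9.37 for each FPKM at the median depth, and its libraries held 2 to 109 reads, which limits its precision. All 10 members passed the filter on low counts, among 15934 genes tested. Marco had at least 10 reads in just 4 libraries, all of SAP-24h, DEX-24h or Emo-24h. It thus passed the filter only through groups where it was high.

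**Figure D1:**
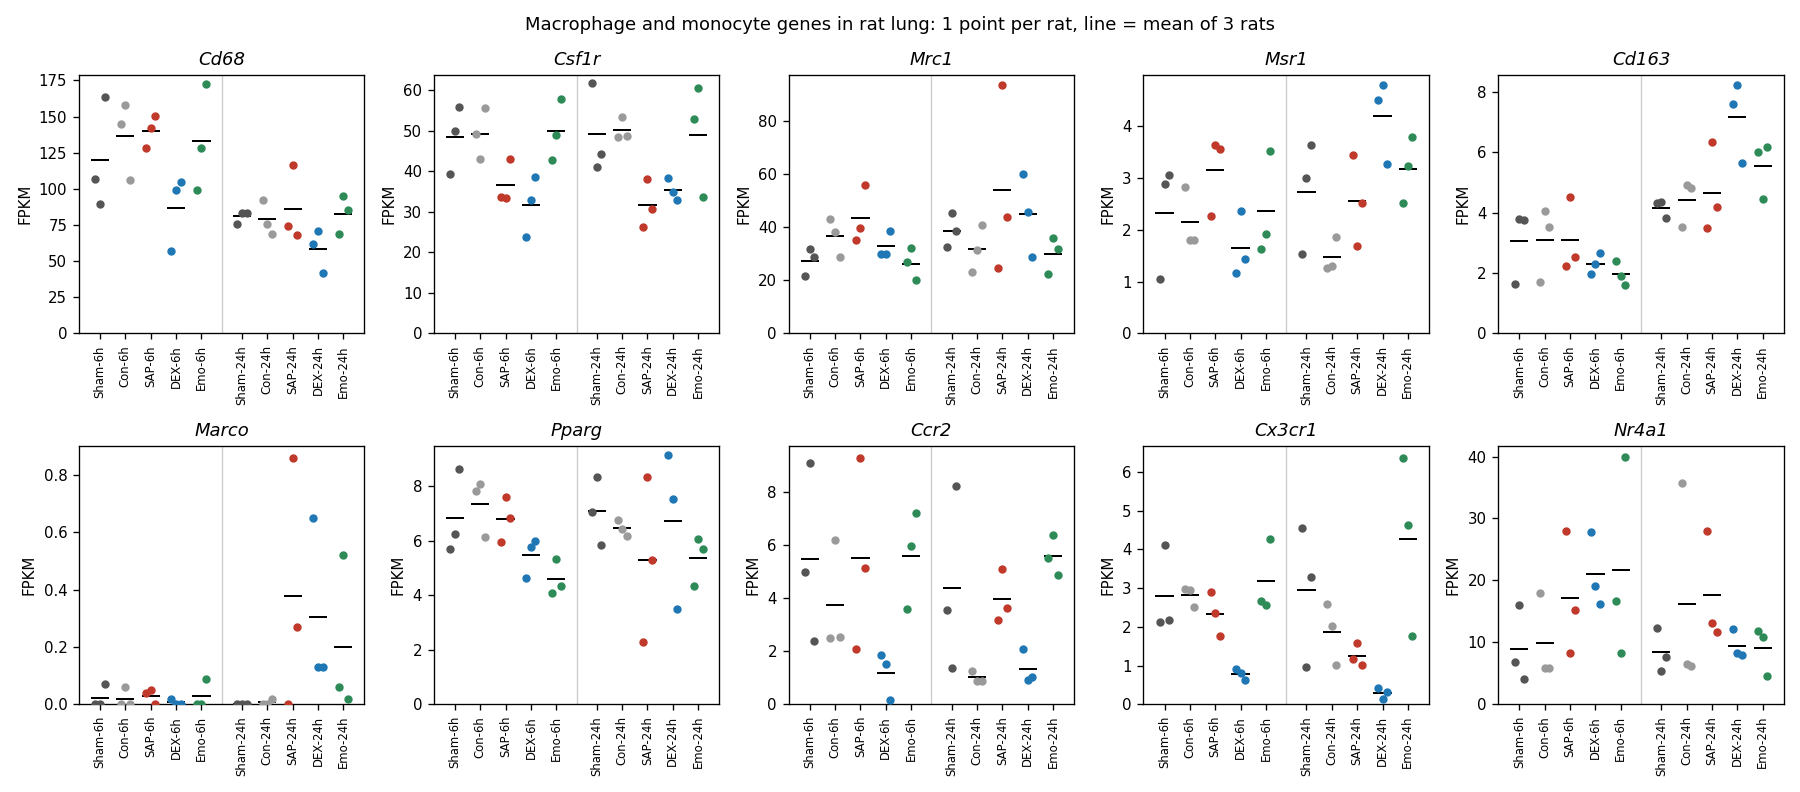
FPKM of the 10 genes in each rat (1 point per rat, line for the mean of 3 rats) across the 5 treatments at 6 hours (left of the grey line) and 24 hours (right). The 6 DEX rats lie lowest for Cx3cr1, the Cd163 points are higher at 24 than at 6 hours in the DEX and Emo groups, and Marco is close to 0 in most rats.

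Groups were compared by the quasi-likelihood test of edgeR, with p-values adjusted after Benjamini and Hochberg over all genes tested. A call needed both a change of 2-fold or more and an adjusted p under 0.05. Over 21 comparisons of 10 members, 15 of 210 tests were calls, where 2.62% of all gene tests in these comparisons were. Cx3cr1 gave 6 of them, Marco 4, Ccr2 and Cd163 2 each and Msr1 1. The 4 calls of Marco raise this count although it passed the filter only through groups where it was high, so no conclusion is drawn from them. Mrc1, Pparg and Nr4a1 passed in none of the 21, and Cd68 and Csf1r passed in 1 each when changes smaller than 2-fold were counted. In 11 comparisons no member was called. The rats of a group are separate animals, so the tests weigh differences against the spread between rats. Where rats or list sums of 2 groups are said not to overlap, this describes 3 values against 3 and is not a test. The share of all genes without overlap is not given.

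**Figure D2:**
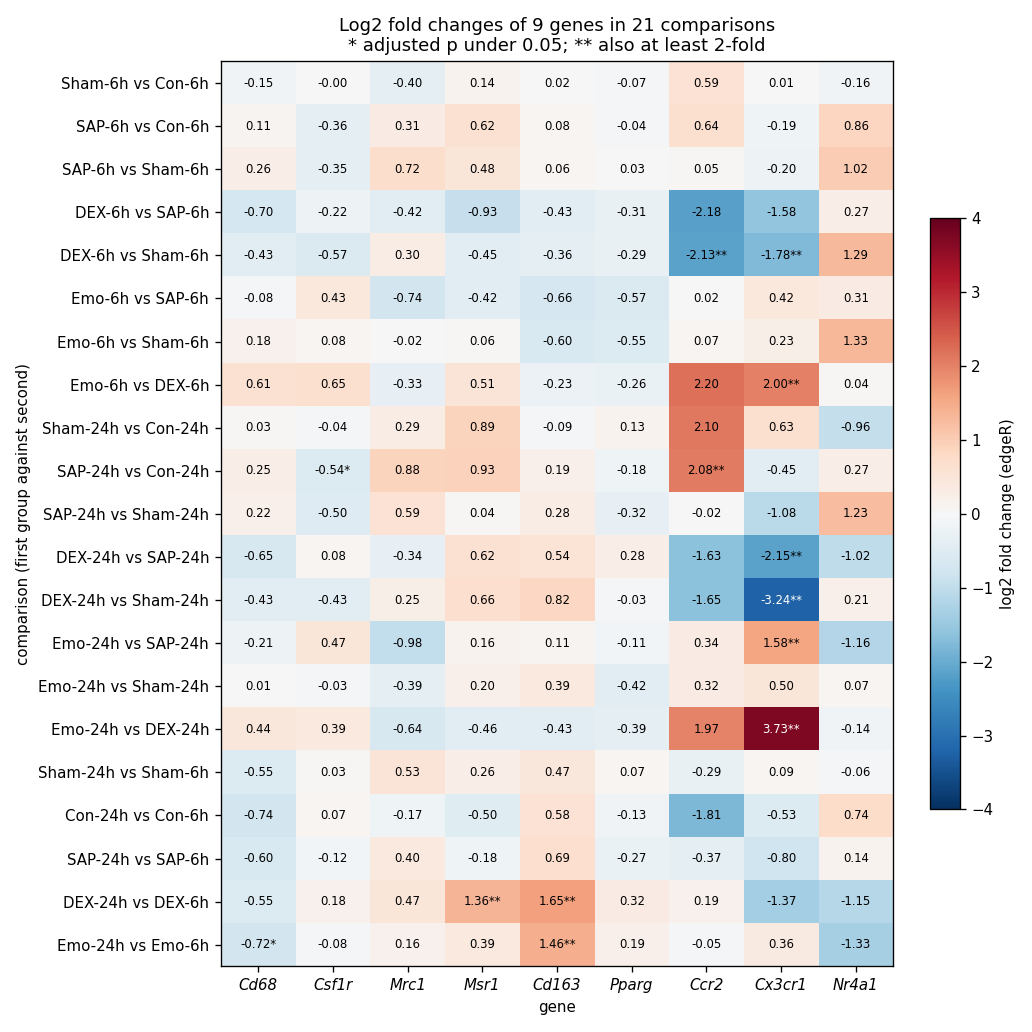
Log2 fold changes of 9 genes (columns, Marco left out because its groups hold almost no reads) in the 21 comparisons (rows), red for higher and blue for lower in the first group. The deepest colour is that of Cx3cr1 in Emo-24h against DEX-24h (3.73), and Ccr2 has deep colours in rows with DEX-6h and with Con-24h.

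Cx3cr1, the fractalkine receptor, was the member that changed most often, and it was low wherever DEX was given. At 6 hours it was at 0.92, 0.8 and 0.63 FPKM in the DEX rats, against 2.9, 2.35 and 1.76 in the SAP rats and 2.12, 4.11 and 2.18 in the Sham rats. At 24 hours it was at 0.43, 0.13 and 0.33 in the DEX rats, against 1.18, 1.58 and 1.02 in SAP and 4.56, 0.97 and 3.3 in Sham. The 6 DEX rats were the 6 lowest of the 30, with a highest value of 0.92 against a lowest of 0.97 among the other 24. The Emo rats were at 2.68, 2.57 and 4.28 FPKM at 6 hours and at 6.37, 4.64 and 1.77 at 24 hours, all above every DEX rat.

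Against Sham-24h, Cx3cr1 fell by 3.24 ± 0.53 (SE) on the log2 scale in DEX-24h, a 9.42-fold difference (edgeR adjusted p = 0.000718). With Marco, which passed the low-count filter only through groups where it was high, 2 of 10 members were called. The share of all genes called was 4.15%. Against SAP-24h Cx3cr1 fell by 2.15 ± 0.52 (edgeR adjusted p = 0.0137), with no overlap between the 3 rats of each group. It was the 1 member called there, where 3.73% of all genes were. Between the drugs, Emo-24h was 13.3-fold above DEX-24h (log2 fold change 3.73 ± 0.53, edgeR adjusted p = 0.000189), again the 1 member called, where 5.06% of all genes were. The first and the third of these Cx3cr1 calls held under every alternative run, including each of the 6 libraries left out in turn. The call against SAP-24h was lost without DEX-24h replicate 2, the rat with 0.13 FPKM (edgeR adjusted p = 0.0738), and with the compared groups modelled alone (0.0769).

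At 6 hours the same gene was 3.43-fold lower in DEX than in Sham (log2 fold change -1.78 ± 0.48, edgeR adjusted p = 0.0227) and 4.01-fold higher in Emo than in DEX (2.00 ± 0.49, edgeR adjusted p = 0.0262). With Ccr2, 2 of 10 members were called lower in the former comparison, where 3.97% of all genes were called, and 1 of 10 in the latter, where 1.41% were. The T cell gene Cd2 (-1.58), the dendritic cell gene Xcr1 (-2.50) and Pou2f2 of the patrolling monocyte list (-2.05) were also called lower in DEX-6h than in Sham-6h, as was the macrophage lineage gene Adgre1 (-2.10), while Cd14 of the lineage list (1.23) and Thbs1 of the classical monocyte list (1.49) were called higher. The patrolling monocyte list summed to 207 to 320 FPKM in DEX-6h and 173 to 237 in Sham-6h, which overlapped. The natural killer cell list summed to 20.8 to 27.7 FPKM in DEX-6h and 40.1 to 140 in Sham-6h, without overlap. The part of these lists in the result was not tested. The Cx3cr1 difference from SAP-6h, -1.58 ± 0.48, did not pass with edgeR (adjusted p = 0.126) and passed with DESeq2 (adjusted p = 0.0428). The rats of these groups did not overlap. The call against Sham-6h was lost without DEX-6h replicate 1 or 3 or Sham-6h replicate 2 (edgeR adjusted p up to 0.1). The call of Emo-6h against DEX-6h was lost without any one of the 3 DEX-6h rats or Emo-6h replicate 3 (edgeR adjusted p up to 0.112). An interaction of the DEX effect with time was fitted and gave -0.58 ± 0.70 for Cx3cr1 (edgeR adjusted p = 0.759). By edgeR 0 of 10 members were called there, 2 had an unadjusted p under 0.05, and 0.138% of all genes were called.

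Emodin and the untreated model differed in Cx3cr1 at 24 hours. Emo-24h was 2.99-fold above SAP-24h (log2 fold change 1.58 ± 0.47, edgeR adjusted p = 0.0408), with every Emo rat above every SAP rat, and it was the 1 member called, where 3.19% of all genes were. This call held without Emo-24h replicate 3 but in none of the other 5 leave-one-out fits (adjusted p 0.0571 to 0.167), and it was lost without the low-count filter (edgeR adjusted p = 0.0501) and with the compared groups alone (0.144). In the same comparison 2 of 7 T cell genes (Cd3d 1.58, Cd3e 1.72) and 2 of 8 dendritic cell genes (Xcr1 2.88, Siglech 2.86) were called higher too, and their part in the result was not tested. In Emo-24h against Sham-24h edgeR called 0 of 10 members and 0.0% of all genes, DESeq2 called 0 members, and 1 member had an unadjusted p under 0.05. SAP-24h lay at 0.473 times the level of Sham-24h (log2 fold change -1.08 ± 0.47, edgeR adjusted p = 0.13), with Sham-24h replicate 2 (0.97 FPKM) below all SAP-24h rats. Without that rat the difference was -1.49 with an edgeR adjusted p of 0.0488. In SAP-24h against Sham-24h 6 of 7 T cell genes (Cd3e -2.04, Cd3g -1.98) and 1 of 6 natural killer cell genes (Ncr1 -2.08) were called lower. The share of all genes called there was 5.0%, and the part of these lists in the difference was not tested.

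Ccr2, the receptor for the monocyte attractant CCL2, showed the same drug contrast at lower precision. It was at 1.86, 1.51 and 0.18 FPKM in DEX-6h (37 reads in all), at 2.07, 9.28 and 5.13 in SAP-6h and at 3.6, 5.95 and 7.2 in Emo-6h. At 24 hours it was at 2.07, 0.92 and 1.02 FPKM in DEX, at 3.18, 5.08 and 3.61 in SAP and at 5.49, 6.38 and 4.85 in Emo. At both times each DEX rat lay below the lowest SAP and Emo rats. The Con-24h rats were as low, at 1.26, 0.88 and 0.89 FPKM, and the Sham groups ranged from 1.36 to 9.08.

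Ccr2 was called in DEX-6h against Sham-6h (log2 fold change -2.13 ± 0.66, edgeR adjusted p = 0.042) and in SAP-24h against Con-24h (2.08 ± 0.68, edgeR adjusted p = 0.0315), where with Marco 2 of 10 members and 6.91% of all genes were called. Marco had passed the low-count filter only through groups where it was high. In the latter comparison 9 of 11 neutrophil genes (Mmp8 5.35, S100a8 5.19, Cxcr2 4.30) and 5 of 9 classical monocyte genes (among them Vcan 3.43 and Fcnb 2.48) were called higher, and 7 of 7 T cell genes (among them Cd3d -2.67 and Cd3e -2.56) lower. The neutrophil list summed to 4890 to 18000 FPKM in SAP-24h and 273 to 1280 in Con-24h, and the part of these lists in the Ccr2 result was not tested. Both calls were fragile. The first held in 1 of 6 leave-one-out fits (without Sham-6h replicate 3) and was lost with the compared groups alone, without the low-count filter and with the replicate number as a block. The second held in 1 of 6 (without SAP-24h replicate 3) and was lost with the compared groups alone (edgeR adjusted p = 0.0502). Emo against DEX gave 2.20 ± 0.66 at 6 hours and 1.97 ± 0.65 at 24 hours, which missed the threshold with edgeR (adjusted p = 0.0709 and 0.0584) and passed it with DESeq2 (0.0189 and 0.024).

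The contrasts averaged over both times were added after the data had been seen. In DEX against SAP, Cx3cr1 was lower by 3.65-fold (log2 fold change -1.87 ± 0.36, edgeR adjusted p = 0.00196) and Ccr2 by 3.75-fold (-1.91 ± 0.46, edgeR adjusted p = 0.0126), which makes 2 of 10 members, where 2.3% of all genes tested were called. In Emo against DEX, Cx3cr1 was 7.3-fold higher and Ccr2 4.25-fold higher (edgeR adjusted p = 2.71e-05 and 0.00366), where 4.71% of all genes were called. These 4 calls held under every alternative and without any one of the 12 libraries. The contrasts share the DEX rats and are not independent of each other.

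**Figure D3:**
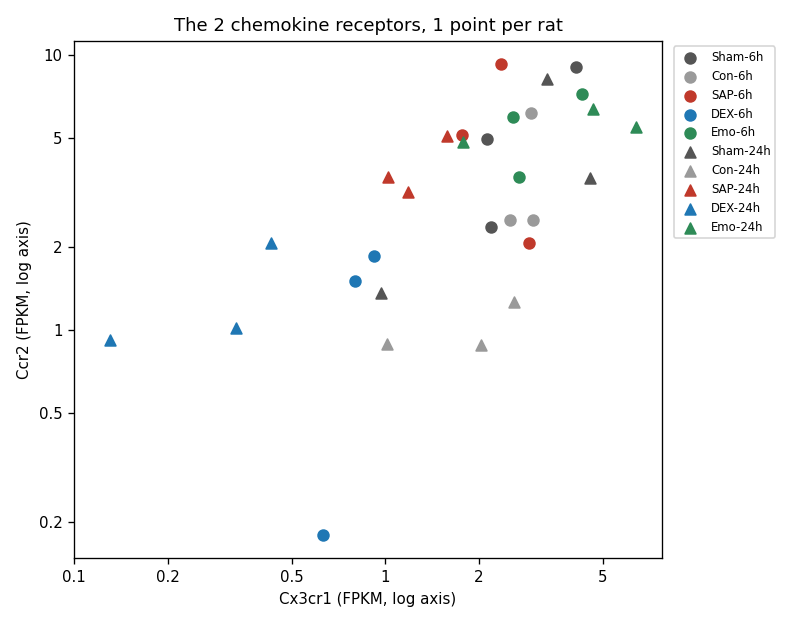
Cx3cr1 against Ccr2 (FPKM, both axes logarithmic) in each of the 30 rats, circles for 6 hours and triangles for 24 hours. The 6 DEX rats (blue) lie at the left, with Cx3cr1 at or below 0.92 FPKM and Ccr2 at or below 2.07 FPKM, and the Emo rats (green) lie above them, with Ccr2 at or above 3.6 FPKM.

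Lymphocyte and dendritic cell genes moved with the receptors, and their part in the result was not tested. In Emo-24h against DEX-24h, 6 of 7 T cell genes, 3 of 6 natural killer cell genes, 6 of 6 B cell genes and 5 of 8 dendritic cell genes were called higher and none lower, against 5.06% of all genes called in either direction. In DEX-24h against Sham-24h, 7 of 7 T cell, 3 of 6 natural killer cell, 5 of 6 B cell and 6 of 8 dendritic cell genes were called lower and none higher, where 4.15% of all genes were called. Natural killer cell genes summed to 4.46 to 19.3 FPKM per library in DEX-24h, to 15.8 to 23.4 in SAP-24h and to 15.2 to 75.1 in Emo-24h. In the same order T cell genes summed to 5.84 to 12.9, 11.8 to 15.9 and 15.3 to 58.5 FPKM. B cell genes were at 6.31 to 13, 22.8 to 37.6 and 39.8 to 69.0 FPKM, and dendritic cell genes at 8.16 to 10.5, 17.8 to 35.1 and 18.2 to 30.8. Every gene of these lists had reads in each of the 3 groups, other than a row of the granzyme gene Gzmb with 0 reads in SAP-24h and in Emo-24h. At 6 hours the T and B cell lists had 0 genes called between Emo and DEX, and natural killer genes had 1, Prf1 (perforin), at 2.30 ± 0.63 (edgeR adjusted p = 0.0487). Natural killer cell genes nevertheless summed to 20.8 to 27.7 FPKM in DEX-6h, 48.9 to 59.6 in SAP-6h and 52.9 to 225 in Emo-6h, without overlap of DEX-6h with either.

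Both monocyte lists held genes called in DEX-24h. Classical monocyte genes summed to 188 to 299 FPKM in DEX-24h, below the 456 to 720 of SAP-24h and the 510 to 579 of Emo-24h, without overlap, but within the ranges of Sham-24h (139 to 384) and Con-24h (132 to 522). Patrolling monocyte genes summed to 220 to 275 FPKM in DEX-24h, 180 to 250 in Emo-24h and 139 to 233 in SAP-24h. The patrolling sums overlapped between groups, but Itgal was called lower in DEX-24h than in SAP-24h (-1.64), and Itgal (-1.37) and Spn (-1.72) were called lower than in Sham-24h. Of the classical list, Ly86 (-1.86) was called lower and Thbs1 (1.87) higher in DEX-24h than in Sham-24h. The part of either list in the result was not tested. Of 9 patrolling genes tested, 3 were called higher in Emo-24h than in DEX-24h, where 5.06% of all genes were called: Pou2f2, a B cell and monocyte transcription factor (log2 fold change 2.20), the sialophorin Spn (1.79) and the integrin chain Itgal (1.46), all of which lymphocytes also express. Of 9 classical monocyte genes, Ly86 was higher (2.39) and Thbs1, which encodes thrombospondin 1, was lower (-1.37). Against SAP-24h, DEX-24h was lower in Fcnb, a ficolin of monocytes and neutrophils (-2.86), and in the proteoglycan Vcan (-2.38), and in 4 of 16 macrophage lineage genes at 2-fold or more: Itgam (-1.53), Fcgr1a (-1.43), Tyrobp (-1.22) and the myeloid regulator Spi1 (-1.16). Each has an edgeR adjusted p under 0.05. The median over the 16 lineage genes in that comparison was -0.632, beside 0.0022 over all genes, and 3.73% of all genes were called. The median over the 10 members was -0.349.

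**Figure D4:**
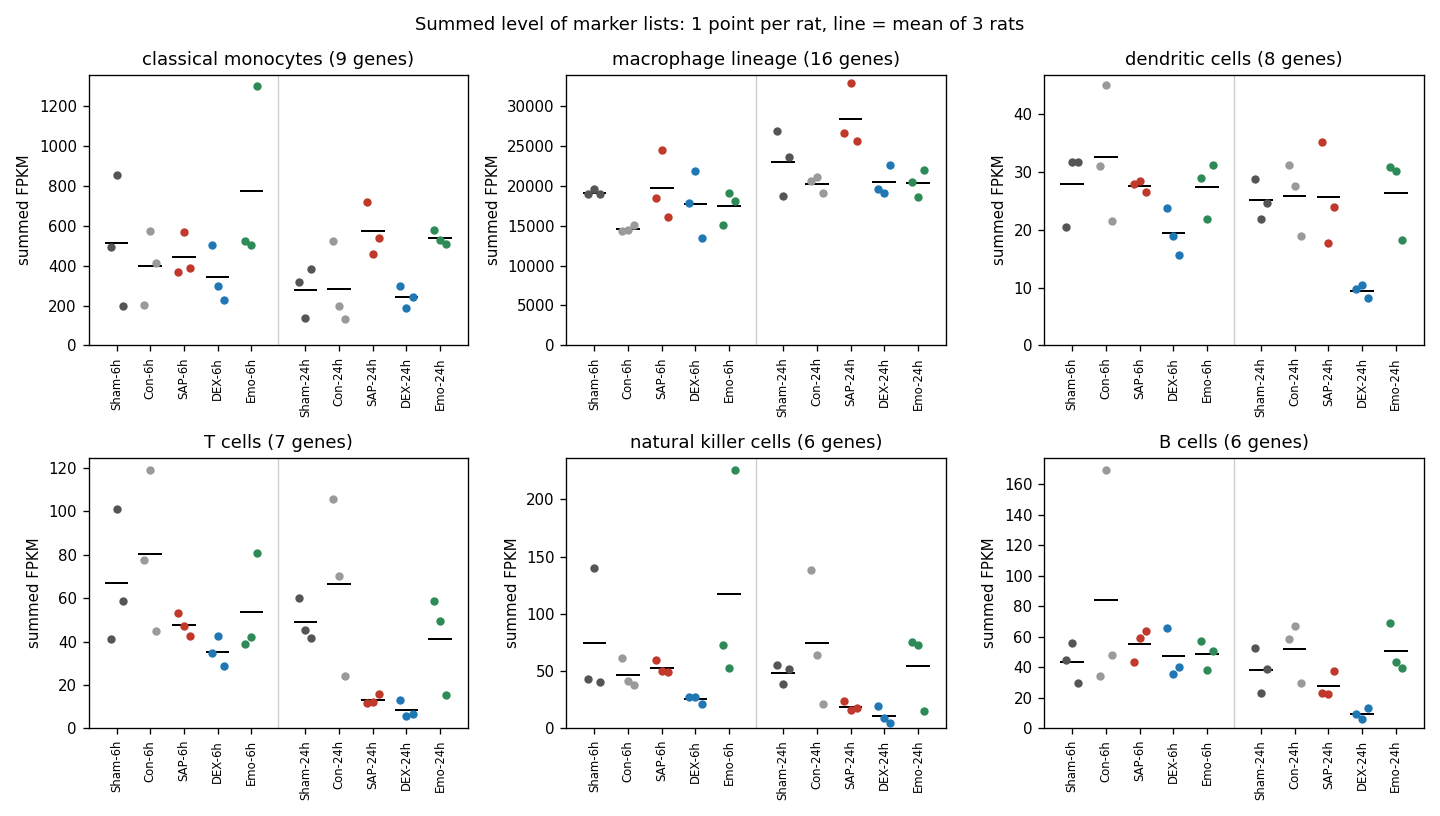
Summed FPKM of 6 marker lists in each rat (1 point per rat, line for the mean of 3 rats). Dendritic and B cell lists are lowest in DEX-24h (8.16 to 10.5 and 6.31 to 13 FPKM), T cell and natural killer lists are low in both SAP-24h and DEX-24h, and the macrophage lineage list of SAP-24h (25600 to 32900 FPKM) overlaps that of Sham-24h (18700 to 26800). Of the lineage list, Tyrobp, Cd14 and Itgam averaged 424, 101 and 6.07 FPKM in SAP-24h, so its sum rests mostly on other genes.

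Ligands and growth factors of these receptors were measured as well. Csf1, the main ligand of the CSF1 receptor, was 1.15 ± 0.24 higher on the log2 scale in Emo-6h than in DEX-6h (edgeR adjusted p = 0.0129) and 1.14 ± 0.24 higher in Emo-24h than in DEX-24h (edgeR adjusted p = 0.00482), with 6.94 FPKM in DEX-24h and 16.1 in Emo-24h. Cx3cl1, the ligand of CX3CR1, was 1.04 ± 0.27 higher in Emo-6h than in DEX-6h (edgeR adjusted p = 0.0355). Ccl2, a ligand of CCR2, averaged 0.143 FPKM in DEX-6h and 1.76 in Sham-6h (log2 fold change -3.54 ± 1.13, edgeR adjusted p = 0.0476), while the macrophage growth factor Csf2 was higher in DEX-6h, at 7.95 against 2.93 FPKM (1.47 ± 0.39, edgeR adjusted p = 0.0188). Of 10 ligand and growth factor genes tested, 2 were called higher and none lower in Emo-24h against DEX-24h, the other being Ccl12 at 2.93 against 0.04 FPKM. The share of all genes called in that comparison was 5.06%, and the part of these ligands in the receptor results was not tested. The glucocorticoid targets Fkbp5 and Sgk1 had log2 fold changes of -2.19 and -1.57 in Emo-24h against DEX-24h, where 6 of 9 rows for such genes were called lower and none higher. In DEX-24h against SAP-24h Sgk1 alone of the 9 was called (1.92), where 3.73% of all genes were. The glucocorticoid target list summed to 917 to 1070 FPKM in DEX-24h and to 1030 to 5020 in SAP-24h, which overlapped. The highest of these sums was that of SAP-24h replicate 1.

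Csf1r, the growth factor receptor shared by monocytes and macrophages, did not pass in any comparison of SAP or DEX with Sham (edgeR adjusted p 0.464 and 0.0636 at 6 hours and 0.0899 and 0.215 at 24 hours, SAP first). Pooled after the values were seen, and with no test, it ranged from 23.82 to 43.1 FPKM (median 33.6) over the 12 SAP and DEX rats and from 33.61 to 61.95 (median 49.1) over the 18 Sham, Con and Emo rats. At 24 hours it was at 26.34, 38.14 and 30.7 FPKM in SAP, 61.95, 41.22 and 44.26 in Sham and 48.61, 53.33 and 48.73 in Con, with no overlap of SAP with either. Its change against Con-24h was -0.54 ± 0.20 (edgeR adjusted p = 0.0484, below 2-fold, where 22.1% of all genes passed at any fold) and against Sham-24h -0.50 ± 0.20 (adjusted p = 0.0899). The former was lost in 5 of 6 leave-one-out fits (adjusted p up to 0.172), the exception being the fit without SAP-24h replicate 2, as well as with RLE scaling, the block, no filter or the 2 groups alone. Averaged over both times, Emo was 1.44-fold above DEX (log2 fold change 0.52 ± 0.14, edgeR adjusted p = 0.0123), where 13.8% of all genes passed at any fold. Without Emo-24h replicate 2 this was 0.41 (adjusted p = 0.0635).

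Cd163 changed with time. It rose from 1.96, 2.29 and 2.68 FPKM in DEX-6h to 7.61, 8.23 and 5.63 in DEX-24h and from 2.39, 1.9 and 1.61 in Emo-6h to 6.02, 4.46 and 6.18 in Emo-24h, without overlap. These changes were 3.15-fold (log2 fold change 1.65 ± 0.31, edgeR adjusted p = 0.00076) and 2.75-fold (1.46 ± 0.31, edgeR adjusted p = 0.00114), and both held under every alternative and every library left out. Lpl of the alveolar macrophage list (1.54 in DEX, 1.25 in Emo) and Cd36 of the patrolling monocyte list (1.48 and 1.41) were called higher too. So was Lamp3 of the alveolar type 2 list (1.3 and 1.43), and Lyve1 of the tissue macrophage list was called lower in DEX (-2.01). Each is from a different list, and the other genes of these lists are not given here. The alveolar macrophage list summed to 1040 to 1090 FPKM in DEX-6h and 1290 to 1360 in DEX-24h. In Emo-6h (784 to 1160) and Emo-24h (1140 to 1290) the sums overlapped. The part of these genes in the Cd163 result was not tested. Cd163 was the 1 member called at 2-fold in Emo-24h against Emo-6h, where 9.41% of all genes were. In Sham, Con and SAP the differences were 0.47 ± 0.30, 0.58 ± 0.30 and 0.69 ± 0.30, and none passed. Averaged over the 5 treatments, a contrast added after the data had been seen, Cd163 was 1.96-fold higher at 24 hours (log2 fold change 0.97 ± 0.14, edgeR adjusted p = 7.27e-06). The interaction of the DEX effect with time, 0.97 ± 0.43, did not pass (edgeR adjusted p = 0.328).

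Cd68 moved the other way. Over the 15 rats of each time it ranged from 57.26 to 172.38 FPKM (median 128.0) at 6 hours and from 41.92 to 116.52 (median 75.8) at 24 hours. The log2 fold change lay between -0.74 and -0.55 in each of the 5 treatments, and passed in Emo (-0.72 ± 0.26, edgeR adjusted p = 0.0361, below 2-fold, where 34.1% of all genes passed at any fold). That call was lost without Emo-24h replicate 1 or 3 or Emo-6h replicate 3 (adjusted p 0.0611 to 0.202) and with scaling to library size only (0.0919). Averaged over treatments it was -0.63 ± 0.12 (edgeR adjusted p = 0.000138). It passed at any fold in each of the 30 leave-one-out fits (-0.69 to -0.57) and under every alternative (-0.64 to -0.61). On that averaged contrast 48.2% of all genes passed at any fold and 4.36% at 2-fold, so that 2 of 10 members is below the share of all genes. Cd68 was 0.627 times as high in DEX as in the untreated SAP groups over both times (log2 fold change -0.67 ± 0.19, edgeR adjusted p = 0.0267, where 7.37% of all genes passed at any fold). This was lost without SAP-6h replicate 3, SAP-24h replicate 2, DEX-6h replicate 1 or DEX-24h replicate 3 (adjusted p 0.0608 to 0.084) and in a fit of the compared groups alone (0.0536).

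Msr1 rose between 6 and 24 hours in the DEX groups. It went from 1.16, 2.35 and 1.43 FPKM to 4.5, 4.79 and 3.26, a 2.57-fold difference (log2 fold change 1.36 ± 0.41, edgeR adjusted p = 0.0166). In the other 4 treatments the change lay between -0.50 and 0.39 and did not pass. Without DEX-24h replicate 2, DEX-6h replicate 1 or DEX-6h replicate 3 the adjusted p was 0.0533, 0.0755 and 0.0674. The interaction of the DEX effect with time was 1.54 ± 0.57 (edgeR adjusted p = 0.226). With Cd163 and Marco, 3 of 10 members were called higher and none lower in DEX-24h against DEX-6h, where 7.14% of all genes were called in either direction. Of these members, Marco had passed the low-count filter only through groups where it was high.

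**Figure D5:**
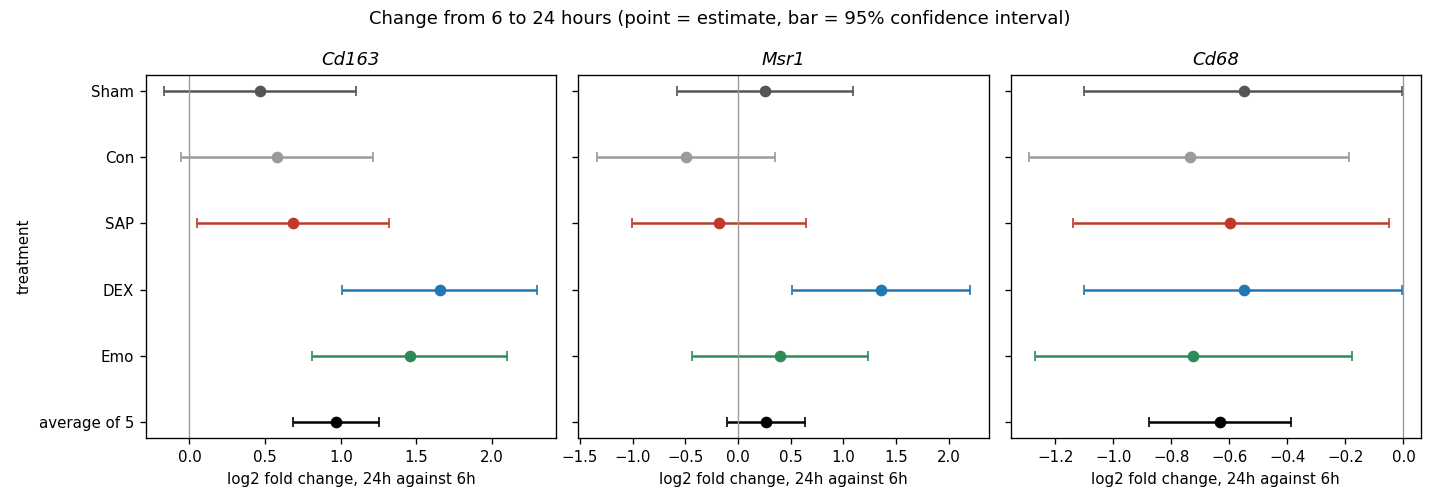
Log2 fold change from 6 to 24 hours of Cd163, Msr1 and Cd68 in each treatment and averaged over the 5 (point for the estimate, bar for the 95% confidence interval). The estimates of Cd163 lie above 0 in every treatment, furthest in DEX (1.65) and Emo (1.46), but the bars cross 0 in Sham (-0.166 to 1.10) and Con (-0.0576 to 1.21). Among the 5 treatments the bar of Msr1 clears 0 in DEX alone (estimate 1.36), and the estimates of Cd68 lie below 0 in all 5.

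In DEX-24h against DEX-6h, Cx3cr1 was lower by 1.37 ± 0.52 on the log2 scale, with no overlap between the rats (edgeR adjusted p = 0.0557). With the replicate number as a block, it was -1.39 with an edgeR adjusted p of 0.0474, and with DESeq2 the adjusted p was 0.0277. In the same comparison 6 of 7 T cell and 6 of 6 B cell genes were called lower and none higher, and their part in the result was not tested. Red blood cell genes were called lower at 24 than at 6 hours in 5 of 6 cases in both SAP and Emo and in 0 of 6 in DEX. The share of all genes called was 2.42% in SAP, 9.41% in Emo and 7.14% in DEX. The red blood cell genes summed to 3960 to 10200 FPKM in Emo-6h and to 377 to 1630 in Emo-24h. Whether the amount of blood in the tissue bears on Cd163 or Cd68 was not tested.

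Marco gave 4 calls on very few reads, and it passed the low-count filter only through libraries of SAP-24h, DEX-24h and Emo-24h. The filter and the tests thus rest on the same reads, and no conclusion is drawn from these calls. In SAP-24h it had 0, 51 and 15 reads, in DEX-24h 44, 7 and 7 and in Emo-24h 3, 29 and 1, against 0 in all 3 Sham-24h rats and 1 in all in Con-24h. Per read sequenced on genes, SAP-24h was at least 20.7-fold above Sham-24h and DEX-24h at least 18-fold, taking 3 reads over the whole Sham-24h group as the limit that 0 reads allow. Without SAP-24h replicate 2, which holds 51 reads, the first bound was 7.26, and without DEX-24h replicate 1, which holds 44, the second was 6.87. DEX-24h exceeded DEX-6h, which held 1 read, 60.7-fold (95% interval 10.5 to 2440, exact binomial, counting error only), and SAP-24h exceeded Con-24h 55.0-fold (9.53 to 2200). Without DEX-24h replicate 1 the former ratio was 23.2, and without SAP-24h replicate 2 the latter was 19.3. The edgeR adjusted p was 0.0251 for SAP-24h against Sham-24h, 0.0314 for SAP-24h against Con-24h, 0.0463 for DEX-24h against Sham-24h and 0.0291 for DEX-24h against DEX-6h. Leaving out 1 library ended the first call in 4 of 6 fits (SAP-24h replicate 2 and each Sham-24h rat), the second in 3 (SAP-24h replicate 2 and Con-24h replicates 1 and 2), the third in 6 and the fourth in 4 (DEX-24h replicate 1 and each DEX-6h rat), with adjusted p up to 0.18, and SAP-24h replicate 1 with 0 reads lay within the range of the controls. With the compared groups alone the first 3 calls were lost too (edgeR adjusted p = 0.191, 0.129 and 0.0772), as was the second with the replicate number as a block (0.0514). DESeq2 gave no usable adjusted p for Marco in SAP-24h against Con-24h or in DEX-24h against Sham-24h, so it offers no result there.

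Mrc1, the mannose receptor of interstitial and alveolar macrophages, was not called in any comparison. Its widest spread was in SAP-24h, at 24.75, 93.71 and 44.04 FPKM, and the rat with 93.71 FPKM (replicate 2) also held the 51 Marco reads. Against Sham-24h the difference was 0.59 ± 0.34 (edgeR adjusted p = 0.255) and against Con-24h 0.88 ± 0.34 (adjusted p = 0.0637, 0.0171 without SAP-24h replicate 1, 0.0406 without Con-24h replicate 3 and 0.0349 with DESeq2). Emo-24h, at 22.36, 36.03 and 31.84 FPKM, lay 0.98 ± 0.34 below SAP-24h (edgeR adjusted p = 0.0693), which passed with DESeq2 (adjusted p = 0.0267) and without SAP-24h replicate 1 (edgeR adjusted p = 0.0253).

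Pparg, which drives the alveolar macrophage programme and is also a regulator of fat cells, averaged 6.2 FPKM and was called in none of the 21 comparisons. Group means lay between 4.59 FPKM in Emo-6h and 7.35 in Con-6h, and the largest difference of the 21 was -0.57 ± 0.31 in Emo-6h against SAP-6h (edgeR adjusted p = 0.43). Within groups it ranged from 2.27 to 8.33 FPKM in SAP-24h and from 3.49 to 9.15 in DEX-24h. A list of 6 adipocyte genes had 0 called in any comparison quoted here.

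Nr4a1 had a wide error, close to that of Ccr2. It was at 11.89, 10.79 and 4.49 FPKM in Emo-24h but at 16.68, 8.29 and 39.97 in Emo-6h, and at 35.75, 6.53 and 6.18 in Con-24h. The differences between groups reached 1.33 ± 0.69 in size (Emo-6h against Sham-6h, edgeR adjusted p = 0.252). Of 10 other immediate early genes, Junb (2.28) and Nr4a3 (3.77), a close relative of Nr4a1, were called higher in SAP-24h than in Sham-24h, where Nr4a1 differed by 1.23 ± 0.69 (edgeR adjusted p = 0.246, with overlap). Nr4a3, Junb and Egr2 were called lower in DEX-24h than in SAP-24h (-3.44, -1.36 and -1.45), where Nr4a1 differed by -1.02 ± 0.69 (adjusted p = 0.389). The 95% interval of that Nr4a1 difference ran from -2.45 to 0.41, so a fall of the size seen for Junb is within it.

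At 6 hours few members differed between the untreated model and the other groups beyond the spread between rats. In SAP-6h against Sham-6h, 0 of 10 members were called by edgeR and by DESeq2, where edgeR called 0.22% of all genes, and 1 member (Mrc1, 0.72 ± 0.34) had an unadjusted p under 0.05. In DEX-6h against SAP-6h edgeR called 0 of 10 members and 0.515% of all genes, 4 members had an unadjusted p under 0.05 and DESeq2 called 2, Cx3cr1 and Ccr2. In Emo-6h against SAP-6h edgeR and DESeq2 called 0 of 10, edgeR called 0.0251% of all genes, and 3 members had an unadjusted p under 0.05. At 24 hours SAP against Sham had 1 member called where 5.0% of all genes were. This was Marco, which passed the low-count filter only through groups where it was high. In the same comparison, the macrophage lineage genes Cd14 (1.67) and Itgam (1.15) were called higher, of 8 activation genes Cxcl2 (3.52), Socs3 (3.16) and Il6 (5.71) were higher and Retnla (-3.30) was lower, and of 11 neutrophil genes Il1r2 (3.46) was higher. Each of these has an edgeR adjusted p under 0.05. Il6 averaged 3.92 ± 6.18 (SD, n = 3) FPKM in SAP-24h, a spread wider than its mean. The neutrophil list summed to 4890 to 18000 FPKM per SAP-24h library and 426 to 9650 per Sham-24h library, and Cd14, Itgam and Il1r2 are shared between neutrophils and monocytes.

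The remaining comparisons held no member call by edgeR. With 0 of 10 members called, the share of all genes called was 0.0% in Sham-6h against Con-6h, 0.163% in SAP-6h against Con-6h and 0.477% in Emo-6h against Sham-6h, and in each of these 0 members had an unadjusted p under 0.05 and DESeq2 called 0. In Sham-24h against Con-24h it was 1.0%, with 2 members at an unadjusted p under 0.05 and 1, Ccr2, called by DESeq2 (edgeR log2 fold change 2.10 ± 0.68, adjusted p = 0.0514). From 6 to 24 hours it was 0.257% in Sham, 0.00628% in Con and 2.42% in SAP, with 1, 2 and 3 members at an unadjusted p under 0.05 and 0 called by DESeq2. The interaction of time with SAP against Sham called 0.0314% of all genes and that with Emo against SAP 1.68%, with 0 members called by edgeR or DESeq2 and 0 at an unadjusted p under 0.05.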

How the data were processed

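Lung RNA of 30 rats was read as poly(A)-selected, strand-specific libraries. The authors used TopHat2 and the rat_ensembl_v6 genome, allowing 2 mismatches and keeping unique hits, and deposited read counts per gene. The counting program is not given in the sources used here. For 22907 genes FPKM was deposited too, with 2 decimals. Here FPKM was used for levels and counts for tests. Libraries held 16813949 to 34692306 reads on genes, and intervals from reads cover counting error only.

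Genes with a low count were dropped (edgeR filterByExpr, minimum count 10, minimum total 15), which left 15934 of 22914. All 10 groups were fitted together with TMM scaling and edgeR's quasi-likelihood test (edgeR 4.0.16, limma 3.58.1, R 4.3.3; 20 residual degrees of freedom), with Benjamini-Hochberg adjustment. The 21 comparisons share control rats and are not independent. Intervals of fold changes are 95%. The alternatives were RLE scaling, library size only, no filter, the replicate number as a block, the compared groups alone, each library left out, and DESeq2 1.42.0. The 3 averaged contrasts were added after seeing the data. Scripts were tested on simulated data. Levels, motifs and figures used Python 3.11.15, numpy 2.4.6, pandas 2.3.3, scipy 1.17.1 and matplotlib 3.10.9. The members and gene lists were chosen with earlier results of these data known, and every member is named. From a list, called genes of the comparison described were eligible, at most 4 per direction by size of change, and not all are printed. Every same-number correlation exceeded 0.1 in DEX-24h and DEX-6h alone (0.212 to 0.23), which by the rule used here counts as pairing, although the labels name no shared batch or litter.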

Additional observations from a re-analysis of the deposited data

How the results depend on the processing

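No call of a member reversed under any alternative, while among 3348 values that passed no threshold in either fit 260 changed sign, and 73 values of single members lost and 32 gained the threshold. Library size alone moved the median of all genes to between -0.204 and 0.245 across comparisons (log2), against -0.0381 to 0.0349 with TMM and -0.0216 to 0.0406 with RLE. The number of members called changed as follows, and the cause was not tested. With DESeq2 it was 2 in DEX-6h against SAP-6h (0 with edgeR), Emo-6h against DEX-6h, Emo-24h against SAP-24h and Emo-24h against DEX-24h (1 each with edgeR), 4 in DEX-24h against DEX-6h (3), and 1 in Sham-24h against Con-24h (0), SAP-24h against Con-24h (2) and DEX-24h against Sham-24h (2). With the compared groups alone it was 1 in DEX-6h against Sham-6h and DEX-24h against Sham-24h, 0 in SAP-24h against Con-24h, SAP-24h against Sham-24h, DEX-24h against SAP-24h and Emo-24h against SAP-24h, 2 in Emo-24h against DEX-24h and 4 in DEX-24h against DEX-6h. With no filter it was 1 in DEX-6h against Sham-6h and 0 in Emo-24h against SAP-24h, and with library size only it was 1 in Sham-24h against Con-24h. With the replicate block it was 1 in DEX-6h against Sham-6h and 1 in SAP-24h against Con-24h, where the rats share only a number, and 4 in DEX-24h against DEX-6h. At 2-fold and an unadjusted p under 0.05 it was 4 in DEX-24h against DEX-6h, 3 in DEX-24h against Sham-24h, 2 in DEX-6h against SAP-6h, Emo-6h against DEX-6h, SAP-24h against Sham-24h, DEX-24h against SAP-24h and Emo-24h against DEX-24h, and 1 in Sham-24h against Con-24h, Emo-24h against Sham-24h, Con-24h against Con-6h, SAP-24h against SAP-6h and the interaction of the DEX effect with time. At any fold it was 2 in Emo-24h against Emo-6h, 2 in the average over times (0 at 2-fold) and 3 in SAP-24h against Con-24h and in both drug averages. Leaving out 1 library gave 0 to 2 members in DEX-6h against Sham-6h and SAP-24h against Con-24h, 1 to 3 in DEX-24h against DEX-6h, and 0 to 1 in Emo-6h against DEX-6h, Sham-24h against Con-24h, SAP-24h against Sham-24h, DEX-24h against SAP-24h, Emo-24h against SAP-24h and the average over times. It gave 1 throughout in DEX-24h against Sham-24h, Emo-24h against DEX-24h and Emo-24h against Emo-6h, 2 throughout in both drug averages, and 0 throughout in the others. Depth limits Marco and Ccr2 most, with at most 51 and 109 reads in a library. DESeq2 gave no usable adjusted p for Marco in SAP-24h against Con-24h and DEX-24h against Sham-24h, so its counts there leave Marco out.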

Other observations

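Genes whose levels followed a member most closely over the 30 libraries are given as a description (Pearson's r, log2 of FPKM + 1, libraries that share groups). For Cx3cr1 they were S1pr5, a lipid receptor of natural killer cells and patrolling monocytes (r 0.90), Traf3ip3 (0.888) and the chemokine Xcl1 (0.885). For Ccr2 they included LOC501189 (0.918) and Atp8b4 (0.883), and for Cd68 Gm2a (0.892), the ferritin gene Ftl1 (0.872) and the lysosomal reductase Ifi30 (0.868). Nr4a1 was followed by AC120246.2 (0.836) and the stress genes Atf3 (0.804) and Ppp1r15a (0.753). Between members, r was 0.665 for Ccr2 and Cx3cr1, 0.657 for Csf1r and Cx3cr1 and -0.5 for Cd68 and Cd163.

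In DEX-24h against SAP-24h, 0 of 7 alveolar type 2, 0 of 6 alveolar type 1, 0 of 6 endothelial, 0 of 5 lymphatic and 0 of 6 heart muscle genes were called by edgeR at 2-fold, where 3.73% of all genes were, while at any fold 2 endothelial and 1 lymphatic gene were. Other contrasts of DEX-24h did hold calls. The surfactant gene Sftpb was lower (-1.11) and the lymphatic chemokine Ccl21 higher (2.18) in Emo-24h than in DEX-24h, and in DEX-24h against Sham-24h they were at 1.23 and -2.12. Lymphatic genes summed to 38.7 to 60.2 FPKM in DEX-24h and to 124 to 218 in Emo-24h. In DEX-24h against SAP-24h, edgeR called 0 of 15 tissue macrophage genes at 2-fold, whereas Lyve1 of that list, also a lymphatic gene, was higher in DEX-6h than in Sham-6h (1.85) and lower in Emo-6h (-1.53) and in DEX-24h (-2.01) than in DEX-6h. In DEX-24h against SAP-24h, of 16 alveolar macrophage genes lipoprotein lipase (Lpl, 1.16) was higher and Itgax (-2.91) and Chi3l1 (-1.16) were lower.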
